A study of Mus musculus with 6 samples.

Results

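The Dlx genes encode 6 homeodomain transcription factors, Dlx1 to Dlx6, which stand in the mouse genome as 3 linked pairs. All 6 gene names were found in the deposited count table, among 25700 genes in all, and all 6 passed the filter on low counts. RNA was sequenced from the proximal incisor, the end that holds the stem cells of this ever-growing tooth, of 6 C57BL/6 mice aged 5 weeks. The 3 control mice were Runx2fl/fl, with a floxed Runx2 gene and no Cre. The 3 conditional knockout (cKO) mice were Gli1-CreERT2;Runx2fl/fl, in which tamoxifen activates Cre only in cells that express Gli1, a mediator of hedgehog signalling that marks incisor mesenchymal stem cells. Per the labels, tamoxifen in corn oil (20 mg/ml) was given intraperitoneally on 3 consecutive days at 1 month of age, at 1.5 mg per 10 g body weight, and the tissue was taken 1 week after induction. The treatment is stated alike for both genotypes, so it is shared by the groups, whereas Cre is not: an effect of the Gli1-CreERT2 allele itself cannot be told apart from Runx2 loss. The question was whether the Dlx genes, alone or pair by pair, differed between the genotypes.

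Dlx proteins are relatives of the fly protein Distal-less and bind DNA through the homeodomain. Members of a pair are transcribed toward each other and share enhancers that lie between and around them, and each pair holds a gene of each of the main Dlx classes (Dlx1, Dlx4 and Dlx6 against Dlx2, Dlx3 and Dlx5). In the jaw, Dlx1 and Dlx2 act in the dental mesenchyme and are needed together for upper molars, Dlx5 and Dlx6 give the lower jaw its identity, and Dlx3 is the gene mutated in tricho-dento-osseous syndrome, with defects of enamel, dentin and bone. Dlx5 is also a regulator of osteoblast differentiation.

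The 3 pairs lie on different chromosomes (coordinates of the deposited table, build mm10). Dlx1 (chr2:71528113-71533981, plus strand) and Dlx2 (chr2:71543408-71546754, minus strand) are 9426 bases apart. Dlx3 (chr11:95120119-95125296, plus strand) and Dlx4 (chr11:95140447-95146263, minus strand) are 15150 bases apart. Dlx6 (chr6:6863334-6868568, plus strand) and Dlx5 (chr6:6877805-6882085, minus strand) are 9236 bases apart. In each pair the 3′ ends face each other.

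Because the 6 genes share the homeobox, the stretch that encodes the last, DNA-contacting helix of the homeodomain is shown for each. The sequences are 60 bases of the annotated transcript with the longest coding sequence that holds the stretch (GENCODE M21, build mm10). They run 5′ to 3′ on the gene's own strand, and capitals mark the 25 positions at which the 6 genes are not all identical.
Dlx1: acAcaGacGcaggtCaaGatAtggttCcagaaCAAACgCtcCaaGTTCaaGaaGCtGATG
Dlx2: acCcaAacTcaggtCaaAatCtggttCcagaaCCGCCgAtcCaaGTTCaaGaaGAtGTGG
Dlx3: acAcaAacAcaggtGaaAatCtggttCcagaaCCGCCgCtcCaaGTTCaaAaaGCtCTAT
Dlx4: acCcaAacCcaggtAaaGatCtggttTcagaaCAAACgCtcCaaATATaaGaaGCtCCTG
Dlx5: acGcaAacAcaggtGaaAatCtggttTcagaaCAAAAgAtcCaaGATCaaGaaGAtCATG
Dlx6: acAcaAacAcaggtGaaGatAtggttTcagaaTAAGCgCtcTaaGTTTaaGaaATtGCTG

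In every gene the stretch crosses the same exon junction, with 12 coding bases at the end of exon 2 and 48 at the start of exon 3. These blocks are chr2:71531145-71531156 and chr2:71532264-71532311 for Dlx1, chr2:71545384-71545395 and chr2:71544877-71544924 for Dlx2, chr11:95121887-95121898 and chr11:95123409-95123456 for Dlx3, and chr11:95141789-95141800 and chr11:95141422-95141469 for Dlx4. For Dlx5 they are chr6:6879526-6879537 and chr6:6878441-6878488, and for Dlx6 chr6:6865260-6865271 and chr6:6867041-6867088. Between linked partners 48 (Dlx1 and Dlx2), 45 (Dlx3 and Dlx4) and 46 (Dlx5 and Dlx6) of the 60 bases were identical. Over all 15 combinations the count ran from 43 (Dlx2 and Dlx6) to 51 (Dlx2 and Dlx3).

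Reads of 75 bases nevertheless separate the members. None of the 75-base words of any Dlx transcript occurred in a transcript of another Dlx gene on either strand. Dlx2, Dlx3 and Dlx5 shared no 75-base word with any other annotated gene. Dlx1 shared 4.68% of its words with its antisense transcript Dlx1as, Dlx4 shared 0.188% with Dlx4os, and Dlx6 shared 1.98% with several genes, Dlx6os2 among them. The labels do not say whether the libraries kept strand, so where a Dlx gene and its antisense partner overlap in exons, their reads cannot be told apart. That overlap covered 335 bases of Dlx1 (6.21% of its exonic bases), 79 bases of Dlx4 (2.42%) and, with Dlx6os2, 104 bases of Dlx6 (4.38%). Dlx6os1, the antisense RNA that spans Dlx6, shared no exonic base with it.

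The libraries held between 53525185 and 66694240 estimated counts. Runx2, the targeted gene, measured 79.7, 77.7 and 81.2 CPM (counts-per-million) in the control animals, against 62.6, 54.0 and 49.0 CPM in the cKO animals, with no overlap. Its log2 fold change of -0.53 (SE 0.089) missed the threshold of 0.05 with the edgeR quasi-likelihood test (adjusted p = 0.0713) and passed it with DESeq2 (adjusted p = 0.000128). Runx2 reads include those of cells without Cre. Gli1, the gene whose locus carries the Cre, had a log2 fold change of -1.03 (adjusted p = 0.131 with edgeR and 0.00185 with DESeq2). The labels call the tissue dental mesenchyme, and all 8 listed markers of dental mesenchyme were measured, with a summed level of 577 to 737 CPM in controls and 695 to 871 CPM in cKO mice. Epithelium was present too. The 4 secretory enamel genes, made by ameloblasts, summed to 60043 to 79541 CPM in controls and 22163 to 46682 CPM in cKO mice. The groups overlapped for the sum of 8 dental epithelium markers (2736 to 3616 CPM in controls, 2304 to 3645 CPM in cKO mice). Krt14 and Krt5 were higher by estimate in cKO mice and the other epithelium members lower. Nerve and Schwann markers overlapped too (16.0 to 35.2 and 18.5 to 25.5 CPM). Summed markers of some other cell types separated the genotypes with no overlap, with all 4 genes of each list tested and none at 0. These were macrophages (232 to 301 CPM in controls, 401 to 455 CPM in cKO mice) and endothelium (333 to 353 and 402 to 424 CPM). Odontoblasts (3021 to 5260 and 6627 to 12950 CPM) and osteoblasts with osteocytes (952 to 1787 and 2115 to 3831 CPM) did so too. In the endothelium list Tek overlapped (31.2 to 41.0 and 38.8 to 43.6 CPM) and the other genes did not. The odontoblast sum was mostly Dspp (2630 to 4517 and 5777 to 11716 CPM). Of its other genes Nes overlapped (244 to 370 and 317 to 533 CPM), while Dmp1 and Phex did not. The osteoblast and osteocyte sum was mostly Bglap (754 to 1581 and 1905 to 3603 CPM). Of its other genes Ibsp did not overlap, while Sp7 (110 to 144 and 119 to 127 CPM) and Sost did. Libraries also stood apart in other ways: control 1 was the only one with an Xist level near 0 (0.596 CPM against 2865 to 3390) and had 316 CPM of skeletal muscle genes against 11.4 to 14.7 CPM in the others. In bulk tissue, fewer cells of a type and less RNA per cell cannot be told apart.

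Dlx3 was the most abundant member in every mouse and Dlx6 the least abundant. To compare genes, the level was divided by the length of all annotated exons. Over the 6 libraries Dlx3 measured 107 ± 7.68 CPM per kb (SD, n = 6), Dlx2 29.6 ± 1.82, Dlx5 25.8 ± 3.24, Dlx4 25.5 ± 3.38, Dlx1 14.5 ± 1.74 and Dlx6 11.3 ± 0.869. Dlx3 was 3.61 times as high as Dlx2, the next in order, and their ranges did not overlap. Dlx2, Dlx5 and Dlx4 did not separate: Dlx2 exceeded Dlx5 in 4 of 6 libraries and Dlx5 exceeded Dlx4 in 3 of 6. Dlx4 exceeded Dlx1 in 6 of 6 libraries without overlap of their ranges, and Dlx1 exceeded Dlx6 in 6 of 6 although the ranges met. With the length of the transcript of longest coding sequence in place of all exons, the middle genes came in another order. They were Dlx5 (41.1), Dlx4 (36.5) and Dlx2 (34.2 CPM per kb), while Dlx3 stayed first and Dlx1 and Dlx6 last. In each pair the gene of the class of Dlx2, Dlx3 and Dlx5 had the higher level per kb, on both length scales and with no overlap of the ranges.

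**Figure D1:**
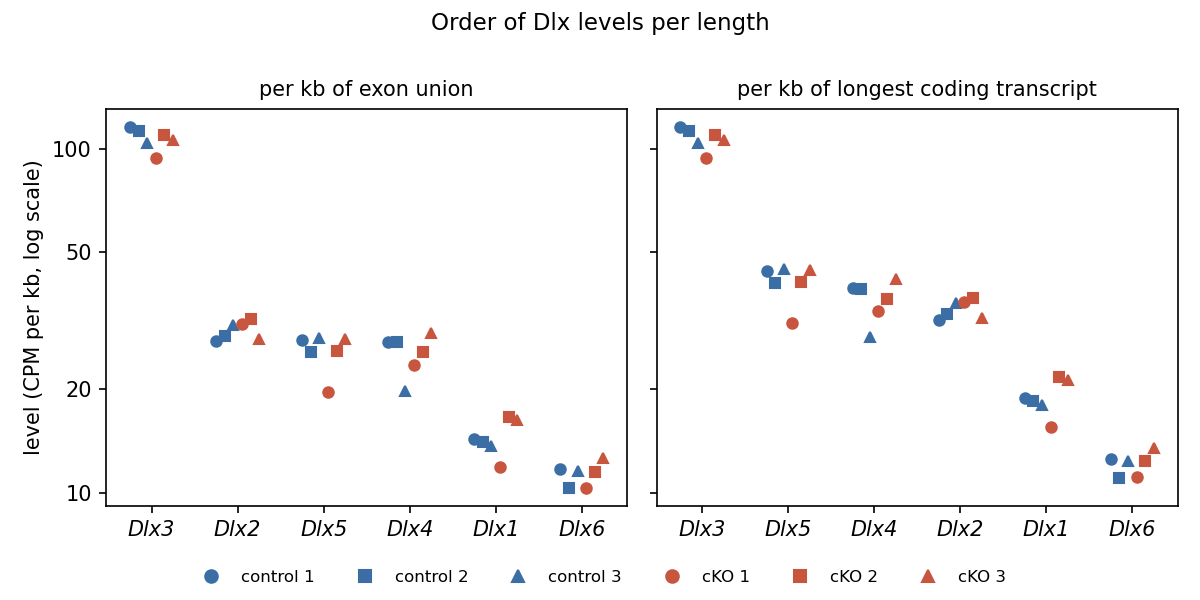
Level of each Dlx gene in CPM per kb (log axis) in 6 libraries, ordered by mean. The length is that of all exons (left) or of the transcript with the longest coding sequence (right). Blue points are control and red points cKO mice. Dlx3 lies at 94.1 to 116 CPM per kb, above all other members on both scales.

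No Dlx gene passed the test between genotypes. Of the 6, 0 had an adjusted p under 0.05 (edgeR), where 0.026% of the 19264 tested genes did. None had an unadjusted p under 0.05 either, against 17.3% of all tested genes, and by DESeq2 0 of 6 passed against 6.89%. The 2 groups of 3 mice overlapped for all 6 members, while 23.1% of tested genes had groups that did not overlap. By estimate 4 members were higher and 2 lower in cKO mice, with log2 fold changes from -0.15 to 0.085, a median of 0.049 and a median over all tested genes of 3.9e-05. The 95% intervals, each for a single gene and without correction for their number, ran over all members from 0.732 to 1.32 times the control level. A p that misses the threshold does not show that the levels were equal, but these intervals bound the difference in the bulk tissue with 3 mice per group. They do not bound a difference within the cells that had active Cre, because the RNA includes that of other cells. Each value rested on 1496 to 19500 counts.

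**Figure D2:**
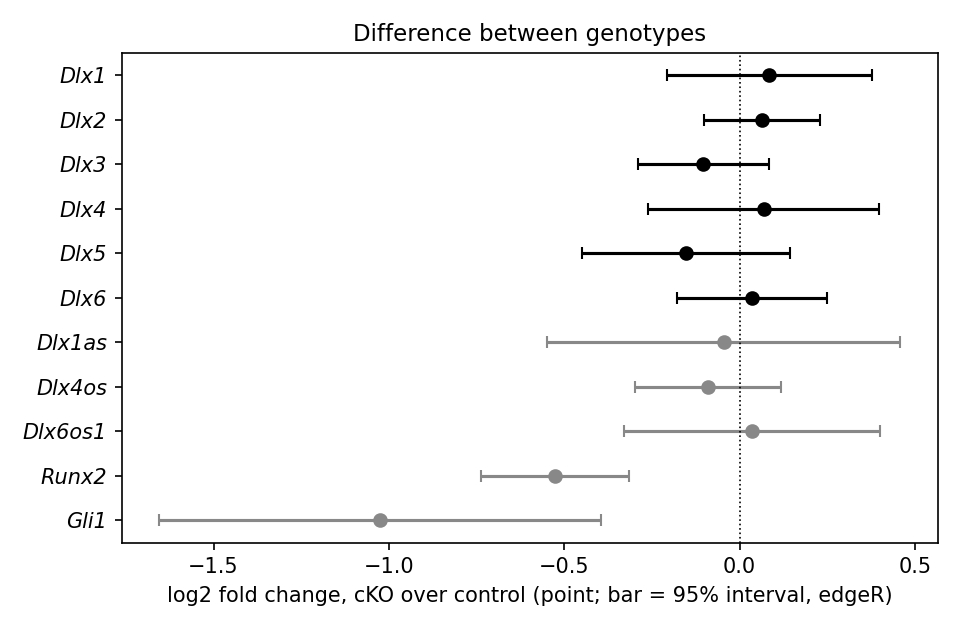
Log2 fold change (cKO over control) of the Dlx genes (black) and, in grey, their antisense transcripts, Runx2 and Gli1; bars are 95% intervals of the edgeR fit with 3 mice per group. All Dlx intervals include 0, and that of Runx2 runs from -0.74 to -0.32.

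Dlx1, the mesenchymal gene first in its cluster, measured 77.4, 75.9 and 73.9 CPM in controls 1 to 3 and 63.9, 89.4 and 87.6 CPM in cKO 1 to 3. The controls lay within a narrow band, and the cKO mice fell on both sides of it. Its means were 75.7 ± 1.79 and 80.3 ± 14.2 CPM (SD, n = 3 each), and the log2 fold change was 0.085 (SE 0.12, 95% interval -0.21 to 0.38, edgeR adjusted p = 0.774). The value moved with single cKO mice: it was 0.23 without cKO 1 (edgeR unadjusted p = 0.0034, adjusted p = 0.156), 0.0071 without cKO 2 and 0.018 without cKO 3.

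Dlx2, its partner, measured 78.7, 81.7 and 87.9 CPM in the control animals, against 88.5, 91.2 and 79.8 CPM in the cKO animals. The highest values were those of cKO 1 and cKO 2, with cKO 3 inside the control range. The means were 82.8 ± 4.67 and 86.5 ± 5.95 CPM (SD, n = 3 each), with a log2 fold change of 0.064 (SE 0.070, 95% interval -0.10 to 0.23, edgeR adjusted p = 0.692). This was the narrowest interval among the 6 members. The value was 0.032 without cKO 2, 0.034 without control 1, 0.11 without control 3 and 0.12 without cKO 3.

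Dlx3, the enamel and dentin regulator, measured 303, 293 and 271 CPM in the control animals, against 245, 285 and 277 CPM in the cKO animals. Only cKO 1 lay below every control. The means were 289 ± 16.1 and 269 ± 21.0 CPM (SD, n = 3 each), and the log2 fold change was -0.10 (SE 0.079, 95% interval -0.29 to 0.084, edgeR adjusted p = 0.558). It was -0.038 without cKO 1 and -0.064 without control 1.

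Dlx4, the partner of Dlx3, measured 89.9, 89.5 and 64.8 CPM in the control animals, against 77.1, 83.7 and 95.3 CPM in the cKO animals. Control 3 was the lowest of all 6 libraries. The means were 81.4 ± 14.4 and 85.4 ± 9.26 CPM (SD, n = 3 each), with a log2 fold change of 0.069 (SE 0.14, 95% interval -0.26 to 0.40, edgeR adjusted p = 0.844). The direction turned without control 3 (-0.072) and without cKO 3 (-0.018), and the value was 0.15 without control 1 and 0.14 without control 2 or cKO 1.

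Dlx5, the osteoblast and lower-jaw factor, measured 62.8, 58.2 and 63.7 CPM in the control animals, against 44.3, 58.4 and 63.3 CPM in the cKO animals. As with Dlx3, cKO 1 alone lay below the controls. The means were 61.6 ± 2.97 and 55.3 ± 9.83 CPM (SD, n = 3 each), and the log2 fold change was -0.15 (SE 0.13, 95% interval -0.45 to 0.14, edgeR adjusted p = 0.586). It was -0.013 without cKO 1 and -0.26 without cKO 3.

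Dlx6 measured 27.9, 24.5 and 27.5 CPM in the control animals, against 24.6, 27.3 and 29.9 CPM in the cKO animals. The groups were interleaved, with the lowest value in control 2 and the highest in cKO 3. The means were 26.6 ± 1.81 and 27.3 ± 2.66 CPM (SD, n = 3 each), with a log2 fold change of 0.035 (SE 0.091, 95% interval -0.18 to 0.25, edgeR adjusted p = 0.881). The direction turned without control 2 (-0.021) and without cKO 3 (-0.037), and the value was 0.073 without control 1, 0.058 without control 3 and 0.11 without cKO 1.

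**Figure D3:**
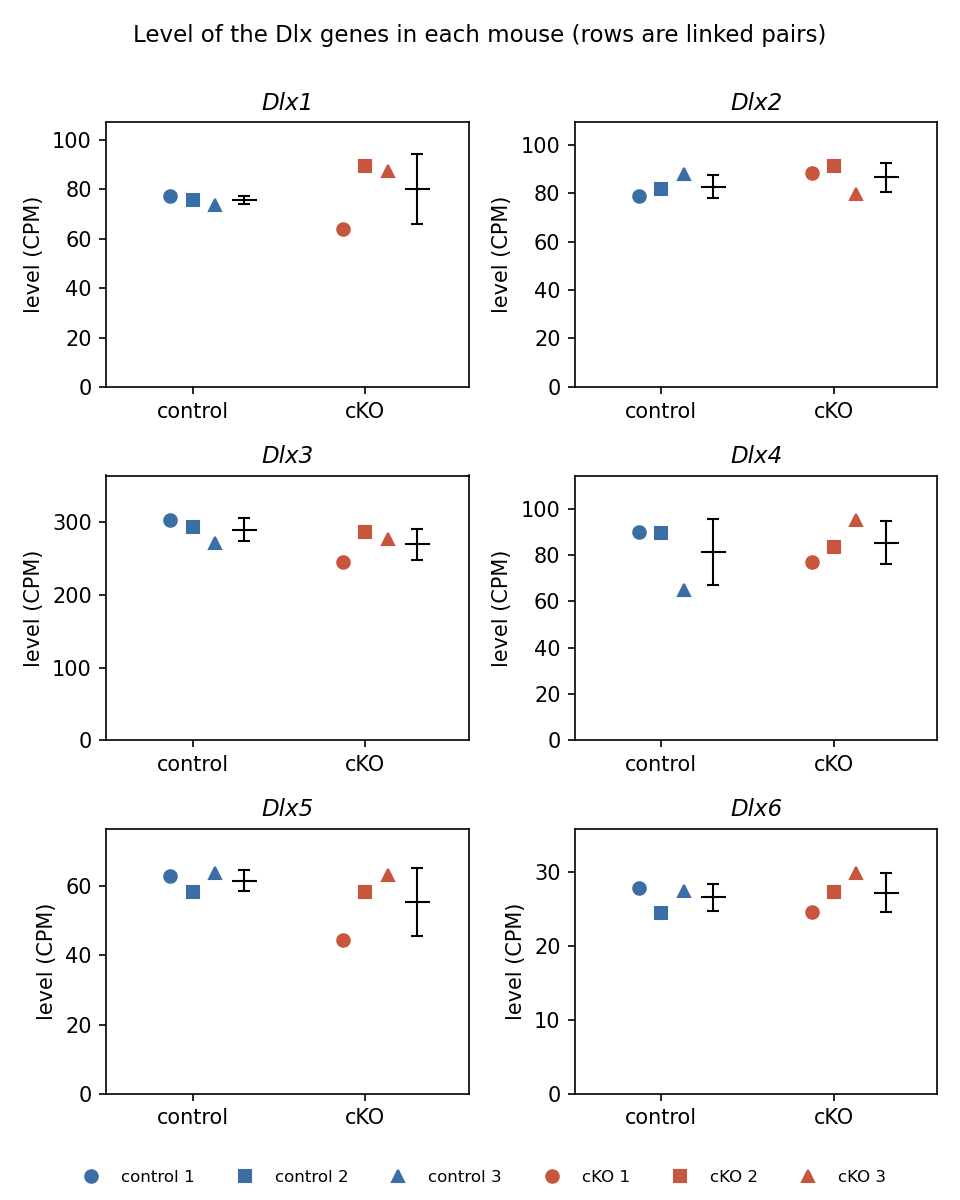
Level in CPM (axis from 0) of each Dlx gene in each mouse, blue for control and red for cKO, with the mean and SD of 3 mice beside the points; each row of panels is a linked pair. The groups overlap in all 6 panels, and cKO 1 (red circle) is the lowest point for Dlx1, Dlx3 and Dlx5.

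The balance within a pair was then taken as the log2 ratio of the counts of its genes in the same library, which does not depend on how libraries are scaled. The Dlx5 to Dlx6 ratio was 1.17, 1.24 and 1.21 in the control animals, against 0.85, 1.09 and 1.08 in the cKO animals. Each cKO mouse lay below each control, with means of 1.21 ± 0.036 and 1.01 ± 0.14 (SD, n = 3 each) and a difference of -0.20. The exact two-sided permutation p was 0.10, the smallest that 3 against 3 can give, and 0.30 after Benjamini-Hochberg adjustment over the 3 pairs. Without cKO 1, the library with the lowest ratio, the difference was -0.12, and the remaining mice still did not overlap.

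The Dlx1 to Dlx2 ratio was -0.023, -0.11 and -0.25 in the control animals, against -0.47, -0.028 and 0.13 in the cKO animals. The cKO mice spanned more than the whole control range, and the means were -0.13 ± 0.11 and -0.12 ± 0.31 (exact permutation p = 1). The Dlx3 to Dlx4 ratio was 1.75, 1.71 and 2.07 in the control animals, against 1.67, 1.77 and 1.54 in the cKO animals. Control 3, where Dlx4 was low, gave the highest ratio, and the difference of -0.18 between means of 1.84 ± 0.19 and 1.66 ± 0.12 moved to -0.073 without that mouse (exact permutation p = 0.30 with all mice, 0.45 adjusted over the 3 pairs). As a mean of both genes on the log2 CPM scale, the cKO mice deviated from the control mean by 0.066 for Dlx1/Dlx2, -0.013 for Dlx3/Dlx4 and -0.068 for Dlx5/Dlx6. The cKO mice ran from -0.072 to 0.19, from -0.15 to 0.091 and from -0.29 to 0.11 on these scales, and the controls from -0.019 to 0.026, from -0.20 to 0.11 and from -0.098 to 0.049.

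**Figure D4:**
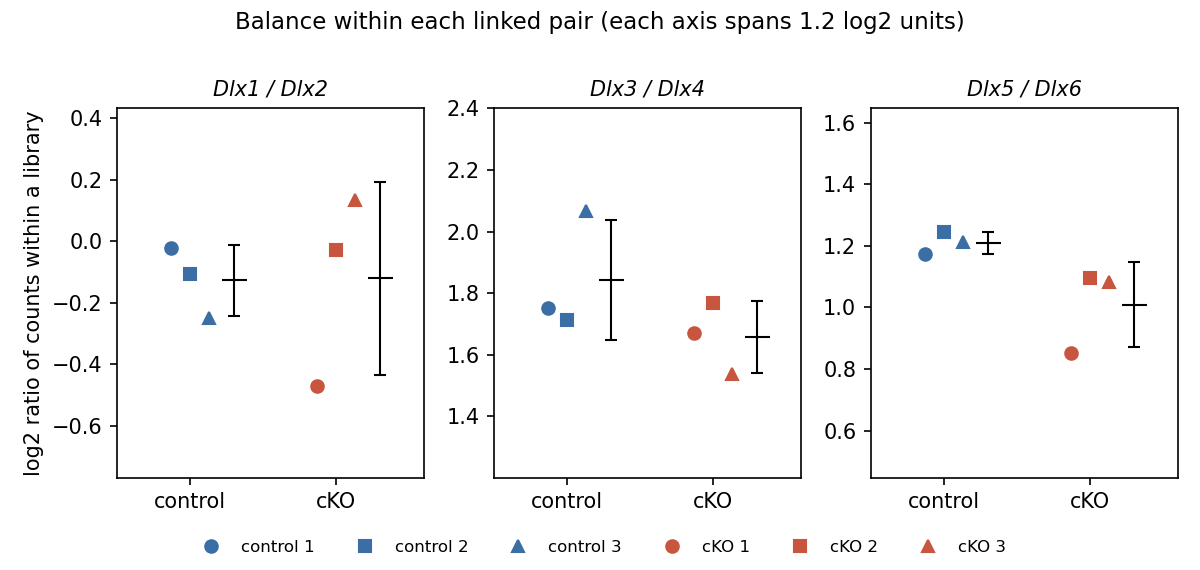
Log2 ratio of the counts of the 2 genes of each linked pair in each library, blue for control and red for cKO, with the mean and SD of 3 mice; the 3 axes have different origins and the same span. For Dlx5 to Dlx6 the cKO mice (0.85 to 1.09) lie below the controls (1.17 to 1.24), and the other pairs overlap.

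The antisense transcripts at the Dlx loci gave no call either, with 0 of 4 past the threshold by edgeR or DESeq2, none at an unadjusted p under 0.05, 2 higher and 2 lower by estimate and a median log2 fold change of -0.0052. Dlx6os1, the long non-coding RNA known as Evf, measured 89.5 ± 6.88 CPM in control against 91.7 ± 19.6 CPM in cKO animals (SD, n = 3 each). Dlx4os measured 57.6 ± 3.99 and 54.1 ± 5.47 CPM, and Dlx1as 7.21 ± 1.40 and 6.99 ± 1.65 CPM. Dlx6os2 was low, at 12 to 27 counts per library. Summing each coding gene with its antisense transcripts gave log2 fold changes of 0.074 for Dlx1, 0.0052 for Dlx4 and 0.035 for Dlx6, none past the threshold. The Dlx6 sum was mostly Dlx6os1 (4626 to 6506 counts per library, against 1496 to 1867 of Dlx6). As Dlx6os1 shares no exonic base with Dlx6, this sum is no check of Dlx6 for reads in an overlap.

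At the 3 loci together, cKO 1 was the lowest of the 6 libraries for 6 of 10 genes (Dlx1, Dlx3, Dlx5, Dlx1as, Dlx4os and Dlx6os1). Over all tested genes cKO 1 was the lowest library for 18.4%. On the log2 scale its distance from the control mean was -0.47 for Dlx5, -0.48 for Dlx1as, -0.37 for Dlx6os1 and -0.24 for Dlx1, but 0.099 for Dlx2 and -0.11 for Dlx6. The same library had the highest summed level of the 6 maturation-stage enamel genes, 2666 CPM against 1452 and 1110 CPM in cKO 2 and 3 and 119, 1804 and 110 CPM in controls 1 to 3. It was also highest in neutrophil genes (3 of 5 listed were tested, none at 0 over all libraries), with 35.2 CPM against 13.9 and 2.03 CPM in the other cKO mice and 1.13 to 1.84 CPM in the controls. The part of these cells in the Dlx values was not tested.

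**Figure D5:**
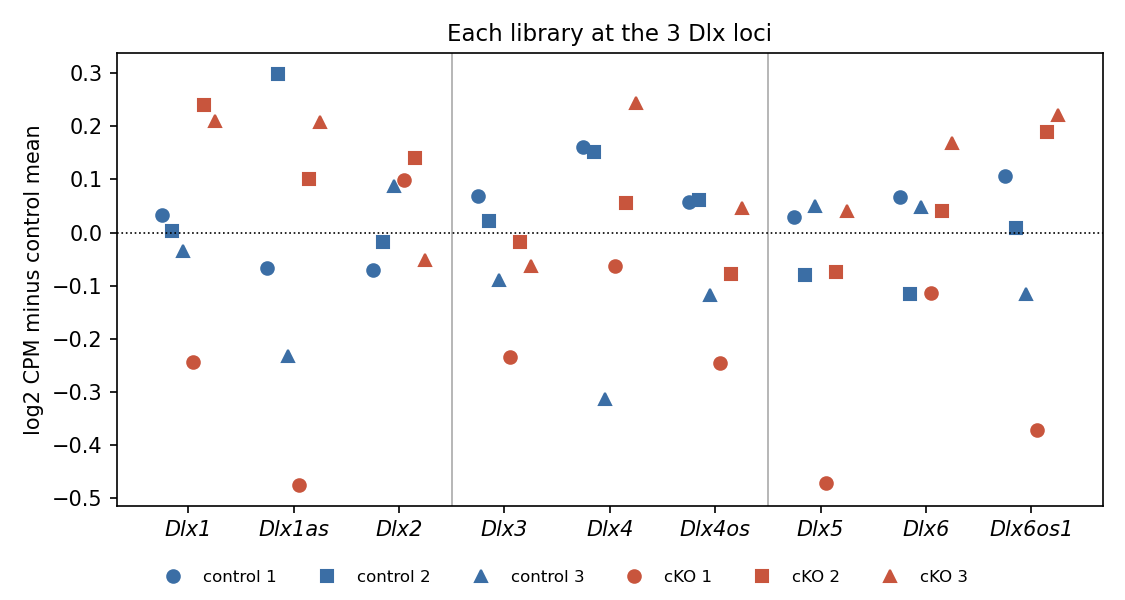
Distance of each library from the control mean, in log2 CPM, for the coding and antisense genes of the 3 loci (separated by grey lines; Dlx6os2, with few counts, is left out); blue is control and red cKO. The cKO 1 library (red circle) is lowest for Dlx1, Dlx1as, Dlx3, Dlx4os, Dlx5 and Dlx6os1 and positive for Dlx2.

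Of the genes that flank the pairs, 0 of 14 tested passed with edgeR (5 at an unadjusted p under 0.05, 1 higher and 4 lower) and 2 with DESeq2, with 3 higher and 11 lower by estimate and a median log2 fold change of -0.13. The mitochondrial carrier Slc25a13, on the Dlx5/Dlx6 side of chromosome 6, measured 26.8 ± 2.16 and 21.6 ± 0.618 CPM (SD, n = 3 each; adjusted p = 0.113 with edgeR and 0.0194 with DESeq2). On chromosome 2, Rapgef4, a cyclic AMP sensor, measured 15.1 ± 1.93 and 11.2 ± 1.08 CPM (adjusted p = 0.0407 with DESeq2) and the histone acetyltransferase Hat1 35.4 ± 2.15 and 30.8 ± 0.875 CPM. On chromosome 11, next to Dlx3, the integrin Itga3 measured 70.4 ± 6.96 and 58.5 ± 6.42 CPM. The groups did not overlap for 5 of these 14 genes, against 23.1% of all tested genes. Over all tested genes 17.3% had an unadjusted p under 0.05 and 6.89% passed with DESeq2.

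Signals and factors upstream of Dlx genes, among them endothelin and bone morphogenetic protein (BMP) signals, had 0 of 9 members passing with edgeR. At an unadjusted p under 0.05 there were 2 (1 higher, 1 lower), against 17.3% of all tested genes. With DESeq2 1 passed, against 6.89%. By estimate 6 were higher and 3 lower, with a median log2 fold change of 0.090. Bmp7 measured 158 ± 6.00 CPM in control against 136 ± 3.75 CPM in cKO animals (a log2 difference of -0.22, with an adjusted p of 0.116 with edgeR and 0.0168 with DESeq2). The endothelin-converting enzyme Ece1 measured 103 ± 22.6 and 150 ± 44.8 CPM and the endothelin receptor Ednra 70.1 ± 14.9 and 87.1 ± 3.28 CPM. Bmp4, a known inducer of Dlx genes, measured 75.8 ± 3.65 and 80.6 ± 7.55 CPM.

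Jaw patterning genes known to act downstream of Dlx5 and Dlx6 had 0 of 7 tested members past the threshold with edgeR. At an unadjusted p under 0.05 there were 2, both higher, against 17.3% of all tested genes. With DESeq2 1 passed, against 6.89%. By estimate 4 were higher and 3 lower. Hand2, a target that patterns the lower jaw, measured 109, 115 and 83.4 CPM in the control animals, against 132, 150 and 162 CPM in the cKO animals. Its groups did not overlap, and its log2 fold change of 0.53 had an adjusted p of 0.121 with edgeR and 0.00662 with DESeq2. The homeodomain factor Alx4 measured 92.2 ± 17.9 and 120 ± 17.2 CPM (SD, n = 3 each), and Barx1 1.28 ± 0.545 and 0.797 ± 0.202 CPM.

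Proteins that bind Dlx factors or oppose them had 0 of 6 genes past the threshold with edgeR. At an unadjusted p under 0.05 there was 1, higher, against 17.3% of all tested genes. With DESeq2 1 passed, against 6.89%. By estimate 3 were higher and 3 lower, with a median log2 fold change of 0.018. Msx1, a homeodomain repressor of dental mesenchyme that pairs with Dlx proteins, measured 192, 181 and 132 CPM in the control animals, against 232, 226 and 249 CPM in the cKO animals (a log2 difference of 0.48, with an adjusted p of 0.150 with edgeR and 0.0196 with DESeq2). All its cKO values lay above all control values, unlike those of the 6 Dlx genes. The groups also did not overlap for Msx2 (higher) and Smad4 (lower). In all, 3 of the 6 partner genes did not overlap, against 23.1% of all tested genes. The difference between Msx1 and the Dlx genes was not tested. Msx2 measured 168 ± 4.88 and 180 ± 7.47 CPM (SD, n = 3 each), Smad4 71.0 ± 0.844 and 67.2 ± 3.56 CPM and Ndn 34.5 ± 3.17 and 36.2 ± 3.78 CPM.

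Bone and dentin genes reported as Dlx targets had 0 of 10 members past the threshold with edgeR and 6 of 10 with DESeq2, where 6.89% of all genes passed, with 7 higher and 3 lower by estimate and a median of 0.74. At an unadjusted p under 0.05 there were 7 of 10 (6 higher, 1 lower), against 17.3% of all tested genes. Dspp, the main dentin matrix precursor and a known Dlx3 target, measured 3422 ± 979 CPM in control against 9515 ± 3254 CPM in cKO animals (SD, n = 3 each; a log2 difference of 1.48, with an adjusted p of 0.0948 with edgeR and 0.00267 with DESeq2). Dmp1 measured 30.2 ± 13.5 and 136 ± 60.7 CPM (a log2 difference of 2.17, with an adjusted p of 0.0878 with edgeR and 0.00167 with DESeq2), and osteocalcin, Bglap, 1079 ± 441 and 2646 ± 869 CPM. Runx2, the gene deleted by design, is counted in these 6 and in these 7, and its call is no result about Dlx targets. It was the 1 member of this list lower at an unadjusted p under 0.05. The odontoblast and osteoblast sums above hold some of the same genes, and the macrophage and endothelium sums were higher in the same 3 mice. Their part in these values was not tested.

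Enamel genes reported as Dlx targets had 0 of 12 members past the threshold with edgeR. With DESeq2 4 passed, against 6.89% of all tested genes. By estimate 8 were higher and 4 lower, with a median of 0.64. At an unadjusted p under 0.05 there were 6 of 12 (2 higher, 4 lower), against 17.3% of all tested genes. These leaned opposite to the median. Control 2 stood apart from the other controls for most maturation-stage genes, but not for Slc34a2 (7.61, 6.81 and 12.5 CPM in controls 1 to 3). Odam, an enamel organ protein named here after its values were seen, measured 21.2, 720 and 10.5 CPM in the control animals, against 972, 565 and 407 CPM in the cKO animals (a log2 difference of 1.37, with an edgeR adjusted p of 0.664). Those of the secretory stage lay lower in every cKO mouse: Enam measured 8610 ± 1215 and 4334 ± 1305 CPM, Amelx 34515 ± 6917 and 16317 ± 6903 CPM and Mmp20 544 ± 25.0 and 445 ± 31.4 CPM (SD, n = 3 each; edgeR adjusted p = 0.120, 0.170 and 0.140, DESeq2 adjusted p = 0.000350, 0.0662 and 0.0132). The bicarbonate transporter Slc4a4 measured 215 ± 32.0 and 288 ± 36.5 CPM (adjusted p = 0.0396 with DESeq2).

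Each Dlx gene was compared by log2 CPM over the 6 libraries with 15118 genes with a mean of at least 1 CPM. Genes with a predicted-gene name (Gm followed by digits, or ending in Rik) were passed over when the 3 closest were named. The correlations are descriptions over 6 points that share the same libraries. Between 61 (Dlx6) and 385 (Dlx4) genes, predicted ones included, reached a Pearson r above 0.9. Closest to Dlx1 were Ncoa7 (r = 0.992), Trarg1 (0.984) and Zfp455 (0.982), and closest to Dlx2 were Zfp747 (0.990), Lgi2 (0.985) and Mtx1 (0.978). For Dlx3 they were Rad50 (0.994), Napepld (0.991) and Nell1 (0.988), and for Dlx4 Fn1 (0.995), Unc13c (0.995) and Tent5c (0.994). Dlx5 was followed by Rsl1 (0.989), Ctdnep1 (0.985) and Vamp7-ps (0.981), and Dlx6 by Ccdc106 (0.987), Samd12 (0.970) and C1d (0.968). No Dlx gene was among the 3 named for its linked partner or for any other member. With 3 places among so many genes, this does not show whether linked partners varied together, which was not tested.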

How the data were processed

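RNA of 6 mice was sequenced as single-end 75-base reads. Per the submitters' processing notes, the authors used STAR 2.6.1d, Partek and build mm10, while annotation and counting settings were not given in the sources used. Deposited estimated counts of 25700 genes were rounded to whole numbers. The second deposited table holds a normalized signal equal to the count plus 1 times a factor per library (100% of values within 0.1%). It served as an alternative. Genes were filtered with filterByExpr (minimum count 10, total 15), scaled by TMM and tested with edgeR 4.0.16 (quasi-likelihood, two-sided, R 4.3.3), with Benjamini-Hochberg adjustment over 19264 genes and a threshold of 0.05. CPM values use TMM-scaled library sizes. At these depths 1 count is worth 0.0150 to 0.0187 CPM. Standard errors and 95% intervals were computed from the log2 fold change and the F statistic. Pair ratios added 0.5 counts to each gene. Mice are numbered in accession order, and these numbers pair no animals. The labels' protocol mentions 3 pairs without naming their members, so all tests are unpaired. Alternatives were DESeq2 1.42.0, other scaling, filters and spread, and leaving out each mouse. The scripts were tested on simulated data. The members, the 7 gene lists and the rule for named genes were chosen with earlier results of these data known. The rule takes the Dlx genes, Runx2 and Gli1, up to 4 genes of lowest p per list (all that pass), and the 3 genes most like each Dlx gene. Predicted-gene names are left out of those 3. A gene that the rule names among the jaw patterning genes, and the median of that list, are not reported here. Sequences, exon lengths and overlaps come from GENCODE M21, which uses that assembly.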

Additional observations from a re-analysis of the deposited data

How the results depend on the processing

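None of the 6 Dlx genes passed the threshold under any of their 69 alternatives, with adjusted p from 0.156 to 0.988, and 4 of the 69 turned direction. Dlx4 turned without control 3 (-0.072) or cKO 3 (-0.018), within a range of -0.072 to 0.15 when mice were left out. Dlx6 turned without control 2 (-0.021) or cKO 3 (-0.037), within -0.037 to 0.11. The Dlx1 to Dlx2 ratio ranged from -0.12 to 0.18 when mice were left out, turning without control 3 (-0.056), cKO 2 (-0.041) or cKO 3 (-0.12). The count of genes changed by edgeR, 5 in all, was 1327 by DESeq2 and 0 with a mean of at least 1 CPM (2842 at an unadjusted p under 0.05), and ran from 0 to 72 when mice were left out. The lowest count came without control 1, cKO 1 or cKO 2 (3101, 3268 and 2700 at an unadjusted p under 0.05), and the others were 72 without control 2, 3 without control 3 and 8 without cKO 3; the cause was not tested. Summing antisense counts was chosen after seeing the data. No paired analysis was possible because the labels, which speak of 3 pairs of libraries, do not say which mice belong together. With 3 mice per group, the pair ratios cannot reach an exact p below 0.10.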
